A study of Homo sapiens with 12 samples.

Results

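The genes described here encode the cyclin-dependent kinase CDK2 with its cyclins and the parts of the SCF ubiquitin ligases that act on this kinase. They are CCNE1 (cyclin E1), CCNE2 (cyclin E2), CCNA2 (cyclin A2), CDK2, the phosphatase gene CDC25A, SKP2, CKS1B, CKS2 and FBXW7. The 9 genes were taken by name and no measured value entered the rule, but they were chosen with earlier results of these data known. All 9 were found among the 61860 genes of the table labelled C4-2 and the 57167 genes of the table labelled DU145. The series, titled as a study of CDK4/6, the STING axis and RB1 in prostate cancer, compared palbociclib with its solvent dimethyl sulfoxide (DMSO). The cell lines C4-2 and DU145, grown in serum-containing RPMI medium, each received either agent, which makes 4 groups of 3 libraries of total RNA. C4-2 descends from the LNCaP line and is known to retain RB1, and DU145 is known to have lost functional RB1. The dose and the duration of treatment were not given in the sources used here. No label states if replicates were separate cultures, and p-values therefore measure only how much the sequenced libraries vary, possibly for technical reasons.

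Palbociclib blocks CDK4 and CDK6, which phosphorylate the RB1 protein and so free E2F transcription factors, and genes of the E and A cyclins are among the known E2F targets. Cyclin E with CDK2 acts at entry into S phase, cyclin A2 with CDK2 acts through S phase, and CDC25A removes the inhibitory phosphates from CDK2. SKP2 with the small adaptor protein CKS1 directs the SCF ligase to the CDK inhibitor p27, while FBXW7 directs it to phosphorylated cyclin E.

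Transcripts were counted in 11 libraries, because every value of C4-2 DMSO replicate 3 was 0 and that library was left out. Totals were 2608851 to 3489659 counts in the 5 libraries labelled C4-2 and 16108999 to 16674393 in the 6 labelled DU145, so a count of 0 in 1 library allows up to 0.86 to 1.15 and 0.18 to 0.186 CPM (counts scaled to the library total), taking 3 counts as the limit and counting error only. Replicates in the first table differed little beyond counting noise, with a chi-square over genes of 1.14 to 1.18 times its degrees of freedom. In the second table replicate 3 of each group stood further off, at 5.41 to 8.34 from the others, which were 2.36 and 2.37 from each other. The libraries labelled C4-2 held 0 counts of 4 of 8 luminal prostate markers (KLK3, KLK2, ACP3 and FOLH1), and FN1 (fibronectin, a mesenchymal marker) was at 19666 CPM. C4-2 is known as a luminal line that expresses these 4 genes, so the values go against the label. The libraries are called C4-2 here by label only, and each difference between the lines rests on it. Those labelled DU145 held 0 counts of KLK3, KLK2, FOLH1 and TMPRSS2. The luminal list summed to 35.8 to 41.4 CPM with palbociclib and 42.1 to 44.4 with DMSO in C4-2, and to 14.7 to 17.5 and 25.9 to 32.5 CPM in DU145. In C4-2 the 4 epithelial markers summed to 408.8 to 443.9 CPM with palbociclib and 1044 to 1053 with DMSO. In DU145 they summed to 1675 to 1771 CPM with palbociclib and 2307 to 2500 with DMSO. KRT8 and KRT18 made up nearly all of these sums. EPCAM held only 1 to 6 counts per C4-2 library and 4 to 19 per DU145 library. CDH1 held 1 to 2 counts per C4-2 library and 13 to 35 per DU145 library. The 4 mesenchymal markers gave 24469 to 24757 and 26833 to 26862 CPM in C4-2, and 273 to 296 and 325 to 339 in DU145. Leukocyte markers summed to at most 1.99 CPM in C4-2, with CD68 at 0, and in DU145 to 3.21 to 4.23 with palbociclib and 0.30 to 0.37 with DMSO, with PTPRC and CD3E at 0. This DU145 shift was that of a single gene, CD14 (5 to 68 counts per library), as CD68 held 0 to 2 counts. The pair of endothelial markers stayed at or below 1.66 CPM in every library. Whether these marker shifts bear on the results below was not tested.

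Promoter letters are shown for the 4 genes whose windows held a motif match and which changed in at least 1 line, since E2F-type elements, CCAAT boxes and the cell cycle homology region (CHR) are the known elements of cell cycle promoters. RefSeq windows (GRCh38.p14), which run from 250 bases before to 50 bases after the gene start, were matched by symbol for 7 of the 9 genes, and CCNE2 and CDK2 were not matched. The E2F-type letters searched were TTTCCCGC, TTTCGCGC, TTTGCCGC and TTTGGCGC, the CHR was TTTGAA and the CCAAT box CCAAT, each on both strands, and none of the 16 matches overlapped another. Of 35116 windows of 300 bases, 3.31% held an E2F-type match, 15.2% a CHR and 34.6% a CCAAT box. The 150 bases before the start follow, 5′ to 3′ on the gene's strand, with matches in capitals. The start here is the one used for these windows, and it differs from the gene coordinates given further below. Part of the CCNA2 and CKS1B stretches therefore lies inside those coordinates.
CCNA2 (chr4:121823884-121824033, minus strand): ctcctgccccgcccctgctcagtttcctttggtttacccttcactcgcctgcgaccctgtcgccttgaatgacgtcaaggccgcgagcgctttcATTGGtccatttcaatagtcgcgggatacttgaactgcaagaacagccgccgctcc
CDC25A (chr3:48188418-48188567, minus strand): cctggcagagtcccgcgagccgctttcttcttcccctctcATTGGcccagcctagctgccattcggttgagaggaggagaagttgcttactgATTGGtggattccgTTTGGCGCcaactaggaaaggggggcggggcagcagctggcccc
CKS1B (chr1:154974531-154974680, plus strand): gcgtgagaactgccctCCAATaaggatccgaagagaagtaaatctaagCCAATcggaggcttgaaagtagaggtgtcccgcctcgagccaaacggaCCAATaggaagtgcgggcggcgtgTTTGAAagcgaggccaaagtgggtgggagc
CKS2 (chr9:89311045-89311194, plus strand): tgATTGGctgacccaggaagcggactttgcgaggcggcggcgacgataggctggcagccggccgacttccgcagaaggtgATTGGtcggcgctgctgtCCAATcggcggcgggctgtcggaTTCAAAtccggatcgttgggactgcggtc
Among the 7 genes with a window, CDC25A alone had an E2F-type match. It lay at 44 to 37 bases before the start, with CCAAT boxes (read as ATTGG) upstream of it. CKS1B and CKS2 share a layout, with a CHR at 30 to 25 and 29 to 24 bases before the start (read as TTCAAA in CKS2) and CCAAT boxes further upstream, 5 in the window of CKS1B and 3 in that of CKS2. CCNA2 had a CCAAT box at 56 to 52 bases before the start. No match was found in the windows of CCNE1 and SKP2, and of 4 windows of FBXW7 only the third held a CHR and a CCAAT box. These are letter matches and say nothing of a factor's binding. Only the exact letters were searched, so elements with other letters were missed and a window without a match may still hold one.

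In the libraries labelled C4-2, 7 of the 9 transcripts fell with palbociclib and 0 rose. CCNE2 fell furthest, from 25.1 ± 2.6 CPM with DMSO (SD, n = 2) to 3.18 ± 0.58 with palbociclib (n = 3), followed by CCNA2, CDC25A and CDK2, while CCNE1 and FBXW7 did not pass the test. In those labelled DU145, CKS2, CDC25A and CDK2 rose, SKP2, CCNE2 and CCNE1 fell, and CCNA2, CKS1B and FBXW7 did not pass. These calls used edgeR's quasi-likelihood test with Benjamini-Hochberg adjustment over all tested genes at 0.05, as do all adjusted p-values below. All 9 members passed the filter on low counts in every fit. Many other genes changed too. Of 11943 genes tested in C4-2, 51.8% were called, 25.2% higher and 26.6% lower, and of 15361 in DU145, 58.1% were called, 28.8% higher and 29.2% lower. In DU145 6 of 9 members were called, 3 higher and 3 lower, which is near the share over all genes. The median log2 fold change of the members was -0.63 in C4-2 and 0.08 in DU145, beside 0.0015 and -0.0074 over all tested genes. Because the members were chosen with earlier results known, these counts and medians are descriptions and no test of the set. The same holds for the interaction below.

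**Figure D1:**
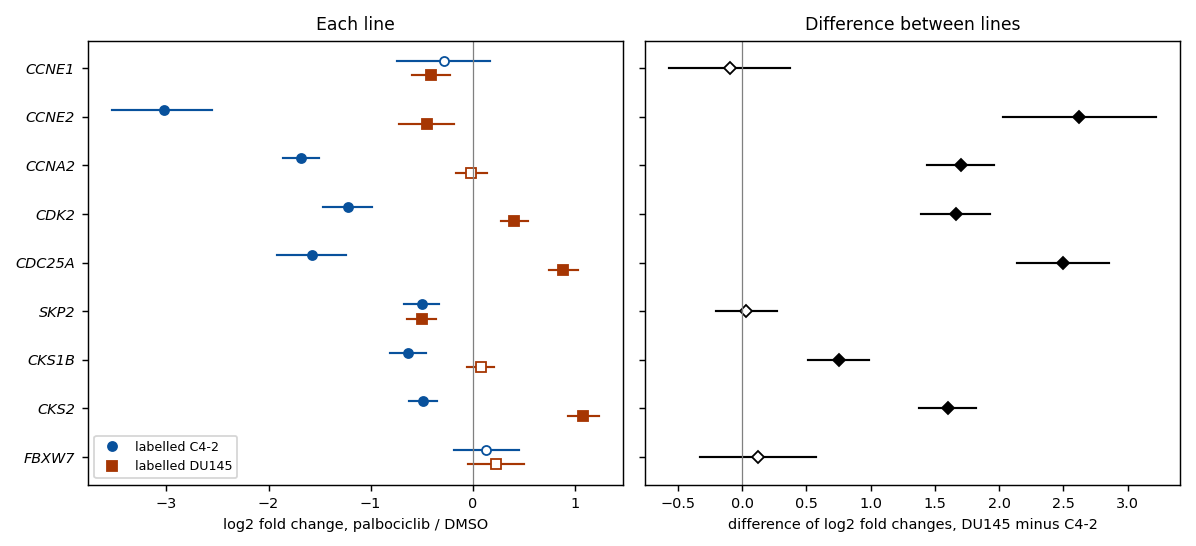
Log2 fold changes of the 9 transcripts, palbociclib against DMSO, in each line (left) and the DU145 change minus the C4-2 change (right). Horizontal lines are 95% confidence intervals and filled symbols have an adjusted p under 0.05. All 7 called C4-2 values lie left of 0, and CDK2, CDC25A and CKS2 lie right of 0 in DU145.

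Whether the response differed between the lines was tested by the interaction of line and treatment, given as the log2 fold change in DU145 minus that in C4-2. It was above 0 for 6 of 9 members (CCNE2, CCNA2, CDK2, CDC25A, CKS1B and CKS2), below 0 for 0, and not past the threshold for CCNE1, SKP2 and FBXW7. Of 18139 genes in this fit 33.4% were called, 18.4% higher and 15.0% lower, and the median difference was 1.60 for the members and -0.017 over all genes. Among the 11007 genes tested in both lines, 976 (8.87%) fell in C4-2 and rose in DU145, as CDK2, CDC25A and CKS2 did. CCNE2 and SKP2 were among the 954 (8.67%) that fell in both. CCNA2 and CKS1B were called lower in C4-2 and not called in DU145, as were 1059 genes (9.62%). CCNE1 was not called in C4-2 and called lower in DU145, as were 1614 (14.7%), and FBXW7 was called in neither line, as were 2068 (18.8%).

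**Figure D2:**
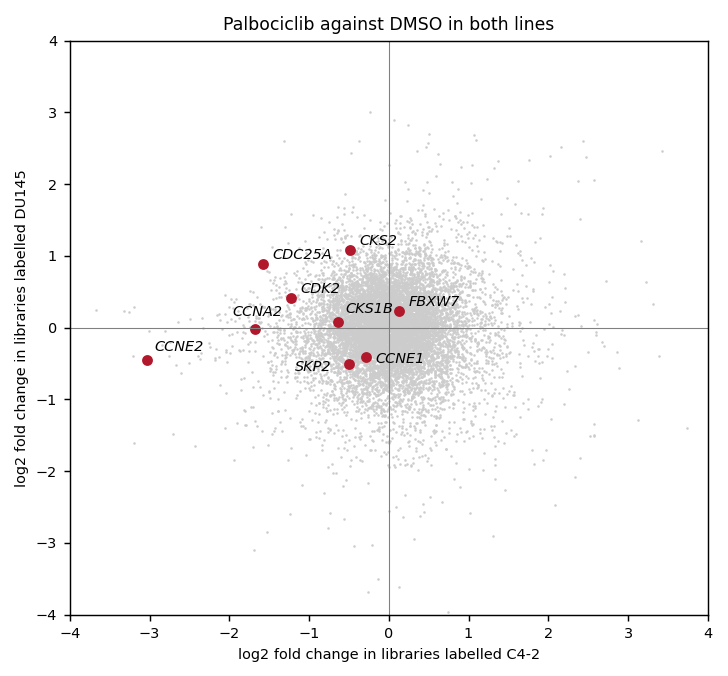
Log2 fold change in C4-2 (horizontal) and in DU145 (vertical) for the 11007 genes tested in both lines (grey), of which 5 lie outside the axes, and the 9 members (red). CDC25A, CDK2 and CKS2 lie in the upper left part and CCNE2 stands at the far left.

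The E cyclins are the partners of CDK2 at the start of S phase. CCNE1 (chr19:29811898-29824308, hg38, plus strand) stood at 8.998, 10.3 and 10.4 CPM in the C4-2 palbociclib libraries and at 12.6 and 10.6 CPM with DMSO. The palbociclib libraries were the lower ones, by a narrow margin and on 26 to 44 reads each. Its log2 fold change was -0.28 (95% CI -0.74 to 0.17, adjusted p = 0.306), so that a change was not detectable at this depth. In DU145 CCNE1 was at 22.2, 23.4 and 23.6 CPM with palbociclib and 31.2, 30.03 and 32.3 CPM with DMSO. The groups did not overlap, and CCNE1 fell by 0.41 on the log2 scale (SE 0.09, adjusted p = 0.000663). The difference between the lines was -0.096 (95% CI -0.57 to 0.37, adjusted p = 0.839).

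CCNE2 lies on the minus strand of chromosome 8, from base 94879770 to 94896678 (hg38). In C4-2 it was counted 11, 8 and 9 times with palbociclib and 94 and 70 times with DMSO, or 3.81, 3.07 and 2.66 against 26.9 and 23.2 CPM. Every palbociclib library was far below both DMSO libraries, and the log2 fold change was -3.03 (SE 0.24, adjusted p = 2.48e-14). The DU145 libraries held it at 10.6, 11.9 and 8.34 CPM with palbociclib and 14.2, 14.2 and 14.5 CPM with DMSO. Replicate 3 was the lowest of the palbociclib libraries, the groups did not overlap, and CCNE2 fell by 0.45 (SE 0.13, adjusted p = 0.00578). The fall was larger in C4-2, by 2.62 on the log2 scale (adjusted p = 1.21e-08). In the GENCODE v29 annotation 37.0% of the exon bases of CCNE2 also lie in exons of INTS8 on the opposite strand, and the C4-2 counting used no strand. INTS8, a subunit of the Integrator complex, itself changed by -0.49 (SE 0.094, adjusted p = 2.93e-05) in C4-2 and -0.27 (SE 0.089, adjusted p = 0.0154) in DU145. The part of this overlap in the CCNE2 values was not tested.

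CCNA2 (chr4:121816444-121823933, hg38, minus strand), the A-type cyclin of dividing somatic cells, was at 62.3, 47.1 and 51.2 CPM with palbociclib and at 179 and 153 CPM with DMSO in C4-2. The groups were far apart, and CCNA2 fell by 1.68 (SE 0.09, adjusted p = 1.76e-20). DU145 libraries held 117, 113 and 101 CPM with palbociclib and 108, 118 and 114 CPM with DMSO. These ranges overlapped, and the log2 fold change was -0.01 (95% CI -0.16 to 0.14, adjusted p = 0.882). The difference between lines was 1.70 (adjusted p = 3.11e-12). EXOSC9, an exosome subunit gene on the opposite strand, shares 9.08% of the exon bases of CCNA2. It changed by -0.56 (SE 0.12, adjusted p = 0.000206) in C4-2 and 0.38 (SE 0.091, adjusted p = 0.00151) in DU145, and its part was not tested. In these bulk libraries fewer cells in a cell cycle phase and less transcript per cell cannot be told apart, which holds for every member.

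The mix of the 3 cyclin transcripts, as shares of their summed counts per exon length, differed between treatments in both lines. In C4-2 CCNE2 made up 8.20% ± 0.038 (SD, n = 2) with DMSO and 3.04% ± 0.35 (n = 3) with palbociclib. The share of CCNE1 was 6.54% ± 0.079 and 16.6% ± 2.9, while its own level was 11.6 and 9.90 CPM and not called, so its larger share reflects the smaller sum of the 3. CCNA2 held 85.3% ± 0.042 and 80.4% ± 2.8. In DU145 CCNE1 was at 21.8% ± 1.1 (n = 3) with DMSO and 17.8% ± 1.6 with palbociclib, CCNE2 at 5.80% ± 0.15 and 4.57% ± 0.58, and CCNA2 at 72.4% ± 1.2 and 77.6% ± 1.3. In each line no share overlapped between treatments. CCNA2 was the most abundant of the 3 in all 11 libraries, and CCNE2 stood above CCNE1 in the C4-2 DMSO libraries and below it in the other 9. These shares are a description without a test.

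**Figure D3:**
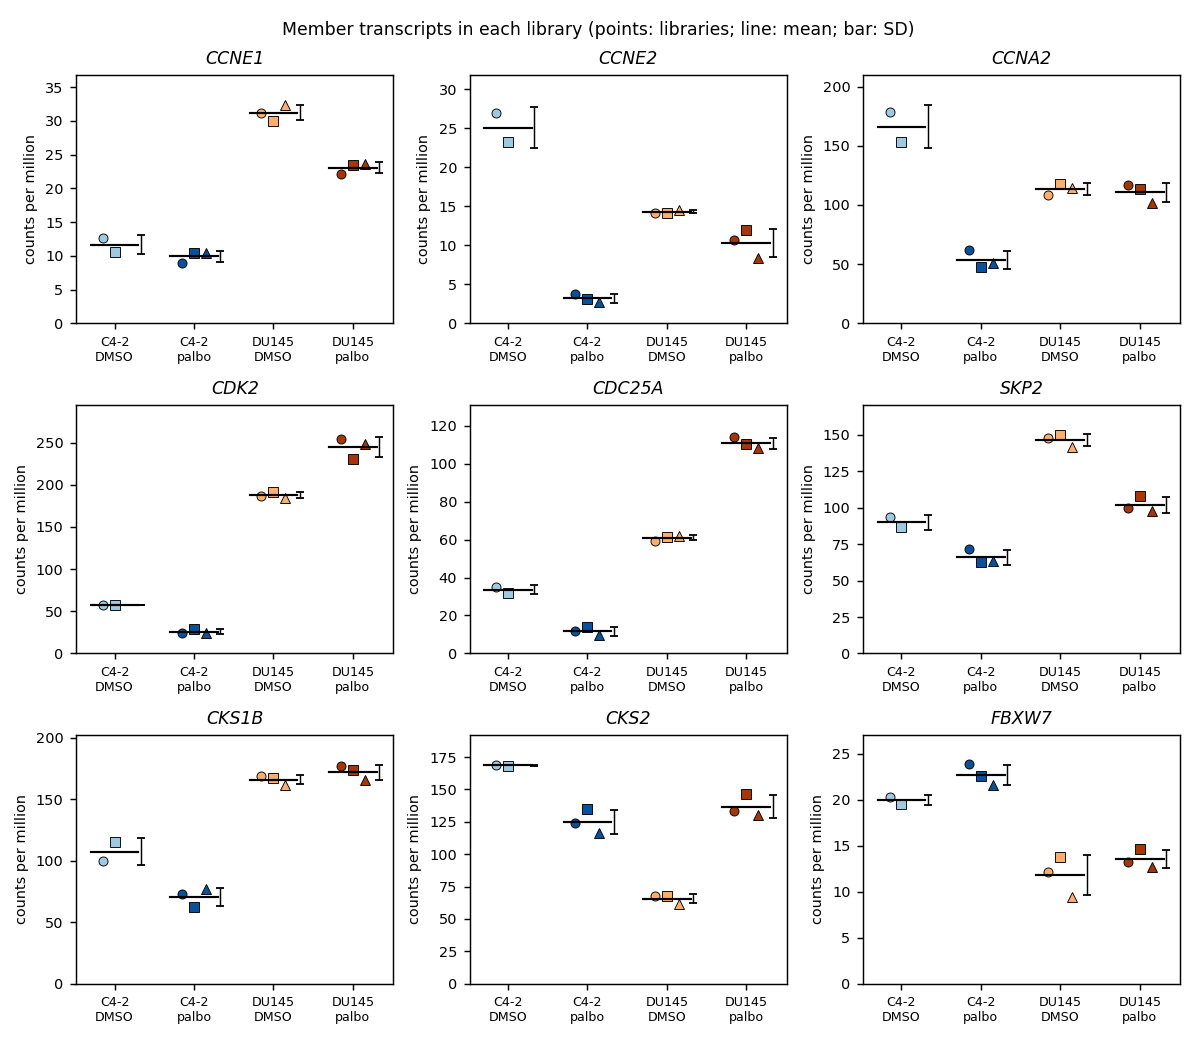
CPM of each member (vertical axes, from 0) in the 11 libraries by line and treatment. Circles, squares and triangles are replicates 1, 2 and 3, horizontal lines are means and bars are SD. The treatments overlap in DU145 for CCNA2, CKS1B and FBXW7. Elsewhere they are apart, also for CCNE1 and FBXW7 in C4-2, which did not pass the test. How many of all genes are apart in this way was not counted. Statements here and in the text that groups are apart therefore only describe these libraries and single out no member.

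CDK2 (chr12:55966769-55972784, hg38, plus strand), the kinase itself, fell in one line and rose in the other. In C4-2 it was at 23.9, 29.1 and 24.3 CPM with palbociclib and 57.9 and 57.7 CPM with DMSO, and fell by 1.22 (SE 0.12, adjusted p = 9.49e-12). The DU145 libraries were at 254, 231 and 248 CPM with palbociclib and 186, 191 and 185 CPM with DMSO, and rose by 0.41 (SE 0.06, adjusted p = 2.41e-05). Groups were apart in each line, and the difference between the lines was 1.66 (adjusted p = 9.43e-12). Exons of an antisense gene listed at 0 counts (AC025162.1) cover 14.5% and those of PMEL 2.29% of the CDK2 exon bases.

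CDC25A (chr3:48157146-48188402, hg38, minus strand), the activating phosphatase, showed the same reversal on a larger scale. In C4-2 it was at 11.8, 14.2 and 9.47 CPM with palbociclib and 35.2 and 31.8 CPM with DMSO. All treated libraries were below both controls, and CDC25A fell by 1.58 (SE 0.17, adjusted p = 1.04e-10). In DU145 the palbociclib libraries held 114, 110.5 and 108 CPM and the DMSO libraries 59.3, 61.5 and 61.8 CPM. All 3 treated libraries were above all controls, with a rise of 0.89 (SE 0.07, adjusted p = 5.97e-09). The difference between lines, 2.50 (adjusted p = 4.76e-13), was close to that of CCNE2. The promoter stretch of this gene with its E2F-type match is printed above.

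SKP2 (chr5:36151989-36184319, hg38, plus strand), the substrate receptor for p27, fell by 0.50 on the log2 scale in both lines. In C4-2 it was at 71.6, 62.5 and 63.6 CPM with palbociclib and 93.7 and 86.5 CPM with DMSO (log2 fold change -0.50, SE 0.09, adjusted p = 5.34e-06). In DU145 it was at 99.7, 108 and 97.9 CPM with palbociclib and 148, 149.9 and 142 CPM with DMSO (log2 fold change -0.50, SE 0.07, adjusted p = 4.81e-06). No treated library reached a control in either line. The difference between the lines was 0.034, with a 95% CI of -0.20 to 0.27 (adjusted p = 0.911), which does not show that the falls were equal.

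The CKS genes encode small proteins that bind CDKs, and CKS1B gives the adaptor that SKP2 needs for p27. CKS1B (chr1:154974653-154979249, hg38, plus strand) was at 72.7, 62.1 and 76.7 CPM with palbociclib and 99.4 and 115 CPM with DMSO in C4-2. It fell by 0.63 there (SE 0.09, adjusted p = 4.87e-08). Libraries labelled DU145 were at 177, 174 and 165 CPM with palbociclib and 169, 167 and 162 CPM with DMSO, with overlapping ranges and a log2 fold change of 0.08 (95% CI -0.054 to 0.21, adjusted p = 0.306). The difference between lines was 0.75 (adjusted p = 4.65e-06). Copies of CKS1B are annotated as pseudogenes. CKS1BP3 held 51 to 81 counts in DU145 libraries, beside 2649 to 2931 of CKS1B. In the less deep C4-2 libraries it held at most 6, beside 162 to 347 of CKS1B. How reads were split among the copies is uncertain.

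CKS2 (chr9:89311198-89316703, hg38, plus strand), whose promoter carries the same pair of elements as that of CKS1B, differed from it in DU145. There it was at 134, 147 and 129.96 CPM with palbociclib and 67.5, 67.9 and 61.7 CPM with DMSO, and rose by 1.08 (SE 0.07, adjusted p = 9.93e-10), the largest rise of the 9 members in that line. In C4-2 it was at 124, 135 and 116 CPM with palbociclib and 169 and 168 CPM with DMSO, and fell by 0.49 (SE 0.07, adjusted p = 3.99e-08). Groups did not overlap in either line, and the difference between the lines was 1.60 (adjusted p = 2.31e-13).

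FBXW7 (chr4:152320544-152536063, hg38, minus strand), the receptor for phosphorylated cyclin E, did not pass the test in either line. It was at 23.9, 22.6 and 21.6 CPM with palbociclib and 20.3 and 19.6 CPM with DMSO in C4-2, with all treated libraries slightly higher and a log2 fold change of 0.13 (95% CI -0.18 to 0.45, adjusted p = 0.508). In DU145 it was at 13.3, 14.7 and 12.7 CPM with palbociclib and 12.2, 13.7 and 9.45 CPM with DMSO, with overlapping ranges. The log2 fold change was 0.23 (95% CI -0.046 to 0.50, adjusted p = 0.144). This value rested on single libraries. Without DU145 DMSO replicate 2 it was 0.34, with an adjusted p of 0.0492 in edgeR, which passes, and without DMSO replicate 3 it was 0.096, which does not. The difference between lines was 0.13 (95% CI -0.33 to 0.58, adjusted p = 0.748).

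Levels of different members were compared per exon length (CPM per kilobase, with the exon length of the DU145 table for both lines). This length merges all annotated exons of a gene and can exceed that of the transcripts present, so the order of members rests on it. It is 2338 bases for CKS1B and 613 for CKS2. Before the division CKS1B stood above CKS2 in DU145 with DMSO, at 166 against 65.7 CPM. CKS2 stood highest in all 4 groups, at 275 in C4-2 with DMSO, 203.8 in C4-2 with palbociclib, 107.1 in DU145 with DMSO and 223 in DU145 with palbociclib. With DMSO in C4-2 it was followed by CCNA2 (59.3), CKS1B (45.9), SKP2 (23.5), CDK2 (14.8), CDC25A (8.15), CCNE2 (5.70), CCNE1 (4.55) and FBXW7 (1.80), and no neighbours in this order overlapped. With palbociclib CKS1B (30.1) came before CCNA2 (19.1), whose range overlapped that of SKP2 (17.2), and CCNE2 moved to the last place (0.72), below CCNE1 (3.88), CDC25A (2.87) and FBXW7 (2.05). In DU145 with DMSO the order after CKS2 was CKS1B (70.9), CDK2 (48.1), CCNA2 (40.6), SKP2 (38.2), CDC25A (14.8), CCNE1 (12.2), CCNE2 (3.25) and FBXW7 (1.06), with CCNA2 and SKP2 overlapping. With palbociclib CDC25A (26.9) reached SKP2 (26.5), and these overlapped, while CKS1B (73.5), CDK2 (62.8), CCNA2 (39.5), CCNE1 (9.04), CCNE2 (2.34) and FBXW7 (1.22) kept their places. Levels of the lines lie in tables made separately and are set side by side without a test.

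Ratios of member transcripts within a library do not depend on its total. Their level depends on the merged exon lengths, while the log2 difference between treatments does not. The CCNE2 to CCNE1 ratio per length was 1.25 in C4-2 with DMSO and 0.185 with palbociclib (geometric means), a log2 difference of -2.76. In DU145 it was 0.266 and 0.256, with overlapping libraries (log2 difference -0.054, exact two-sided permutation p = 1). For CKS2 to CKS1B the treatments were apart in DU145 and not in C4-2. The ratio went from 1.51 to 3.03 in DU145 (log2 difference 1.01) and from 6.01 to 6.77 in C4-2 with overlapping libraries (0.17, exact permutation p = 0.4). The CCNA2 to CCNE1 ratio was 13.0 with DMSO and 4.90 with palbociclib in C4-2 (-1.41), and 3.32 and 4.36 in DU145 (0.40). The SKP2 to FBXW7 ratio was lower with palbociclib in each line, at 8.39 against 13.1 in C4-2 (-0.64) and 21.7 against 36.4 in DU145 (-0.74). Each of the 6 ratios without overlap had an exact permutation p of 0.1, the smallest that 3 against 2 or 3 against 3 libraries can give, and 0.133 after Benjamini-Hochberg adjustment over 8 ratios, so none could pass 0.05.

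**Figure D4:**
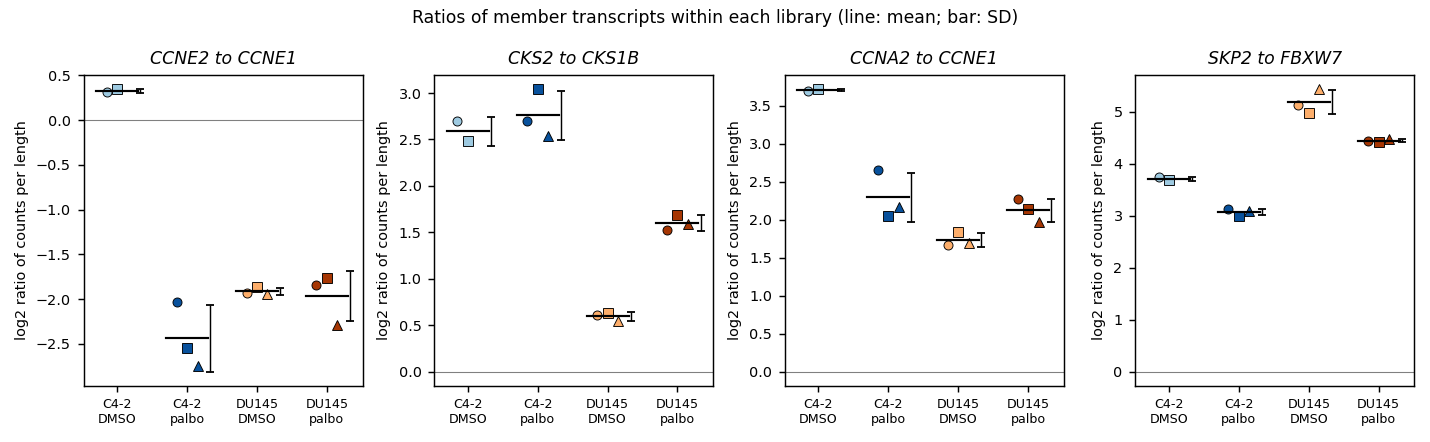
Log2 ratio of counts per length for 4 pairs of members (vertical axes) in the 11 libraries by line and treatment. Circles, squares and triangles are replicates 1, 2 and 3, lines are means and bars are SD. CCNE2 to CCNE1 drops from 0.33 to -2.44 in C4-2, and CKS2 to CKS1B goes from 0.59 to 1.60 in DU145.

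Around the module, 5 lists with 55 genes were counted, which were also chosen with earlier results of these data known. The 13 genes listed as CDK2 kinase regulators include other cyclins and CDKs as well as inhibitors, inhibitory kinases and phosphatases. Of these, 10 were tested in C4-2, where 0 rose and 6 fell with a median of -0.88. This stood beside 25.2% higher and 26.6% lower over all tested genes. CDK1, the mitotic kinase, fell by 1.57 (SE 0.078, adjusted p = 4.18e-21). PKMYT1 and WEE1, kinases that inhibit CDKs, fell by 2.34 (SE 0.14, adjusted p = 1.01e-18) and by 1.17 (SE 0.10, adjusted p = 3.15e-13), and the phosphatase gene CDC25B fell by 0.70 (SE 0.063, adjusted p = 1.06e-12). In DU145 12 were tested, of which 4 rose and 4 fell with a median of 0.12, and 8 called of 12 is near the 58.1% over all genes. The CDK inhibitor genes split there. CDKN1A (p21) rose by 1.47 (SE 0.063, adjusted p = 7.5e-12), from 182 to 495 CPM, CDKN1C (p57) changed by -1.43 (SE 0.088, adjusted p = 4.2e-10), and CDKN1B (p27) changed by -0.64 (SE 0.068, adjusted p = 3.47e-07). WEE1 fell there too, by 0.63 (SE 0.067, adjusted p = 3.47e-07). For the interaction 8 of 13 were higher and 2 lower, beside 18.4% and 15.0% over all genes. Here and below, higher means a difference above 0, which can be a smaller fall in DU145, as for WEE1. CCNA1, called here, was not tested in DU145 alone, and CDKN1C, also called, was not tested in C4-2 alone.

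Of 15 genes of the SCF machinery and its control (scaffold, neddylation, COP9 signalosome, and the anaphase-promoting complex side that controls SKP2), 2 rose and 5 fell in C4-2, with a median of -0.11, and 7 called of 15 is near the 51.8% over all genes. FBXO5 (EMI1, an inhibitor of the anaphase-promoting complex) fell by 1.81 (SE 0.12, adjusted p = 1.51e-16), FZR1 (CDH1, its activator) by 0.60 (SE 0.10, adjusted p = 3.73e-06), CAND1 by 0.38 (SE 0.059, adjusted p = 7.66e-07) and UBE2M by 0.19 (SE 0.052, adjusted p = 0.00212). In DU145 3 rose and 0 fell, with a median of 0.0095, beside 58.1% called over all genes. These were COPS5 (0.38, SE 0.07, adjusted p = 0.000169), NEDD8 (0.35, SE 0.094, adjusted p = 0.00355) and UBE2R2 (0.27, SE 0.082, adjusted p = 0.00874). UBE2R2 did not pass without DU145 palbociclib replicate 1 (0.22, adjusted p = 0.0507) or DMSO replicate 2 (0.20, adjusted p = 0.0735), and UBE2M in C4-2 did not pass with DESeq2 (adjusted p = 0.0506). For the interaction 7 were higher and 0 lower, beside 18.4% and 15.0% over all genes. These counts are small and moved with single libraries, from 7 called genes to 4 in C4-2 without DMSO replicate 2 or without palbociclib replicate 2, from 3 to 5 in DU145 without either replicate 3, and from 7 to 3 for the interaction without C4-2 DMSO replicate 1 or 2 and to 4 without DU145 palbociclib replicate 2.

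Of 8 genes whose products SCF-SKP2 marks, 7 were tested in C4-2, where 2 rose and 2 fell with a median of 0.11, and 4 called of 7 is near the 51.8% over all genes. TOB1, an antiproliferative gene, rose by 1.03 (SE 0.085, adjusted p = 1.05e-13) and RBL2 (the pocket protein p130) by 0.71 (SE 0.11, adjusted p = 1.29e-06). The replication licensing genes CDT1 and ORC1 fell by 1.99 (SE 0.15, adjusted p = 2.48e-15) and by 1.67 (SE 0.15, adjusted p = 1.39e-12). In DU145 2 rose and 5 fell with a median of -0.31, beside 28.8% higher and 29.2% lower over all genes. Named there were CDKN1A, CDKN1B and CDKN1C as above and TOB1 by -0.45 (SE 0.071, adjusted p = 2.97e-05). For the interaction 4 were higher and 4 lower, beside 18.4% and 15.0% over all genes. Transcript counts do not show the protein turnover that these ligases control.

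Of 11 genes for SCF-FBXW7 substrates and the opposing deubiquitinase USP28, 5 rose and 2 fell in C4-2 with a median of 0.18, beside 25.2% higher and 26.6% lower over all genes. The mitotic kinase gene AURKA fell by 1.12 (SE 0.075, adjusted p = 1.17e-16) and the receptor gene NOTCH1 by 0.57 (SE 0.098, adjusted p = 3.94e-06), while NOTCH2 rose by 0.37 (SE 0.035, adjusted p = 5.42e-12) and MED13 by 0.31 (SE 0.054, adjusted p = 4.28e-06). In DU145 8 rose and 0 fell with a median of 0.36, beside 28.8% higher and 29.2% lower. JUN, a transcription factor gene, rose by 1.38 (SE 0.097, adjusted p = 2.04e-09), AURKA by 0.70 (SE 0.068, adjusted p = 1.23e-07), SREBF1 by 0.67 (SE 0.079, adjusted p = 1.32e-06) and NOTCH2 by 0.45 (SE 0.058, adjusted p = 3.12e-06). For the interaction 5 were higher and 1 lower, beside 18.4% and 15.0% over all genes. The number called moved with single libraries left out.

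Of 13 genes whose products CDK2 phosphorylates around S phase entry, 2 rose and 9 fell in C4-2 with a median of -0.92, beside 25.2% higher and 26.6% lower over all genes. The origin licensing gene CDC6 fell by 2.15 (SE 0.12, adjusted p = 9.63e-19), from 72.5 to 16.7 CPM. RBL1 (the pocket protein p107) fell by 1.72 (SE 0.12, adjusted p = 1.18e-15), MYBL2 (B-MYB) by 1.67 (SE 0.06, adjusted p = 5.42e-26) and NPM1 by 0.59 (SE 0.033, adjusted p = 3.64e-19). In DU145 4 rose and 4 fell with a median of 0.10, and 8 called of 13 is near the 58.1% over all genes. RBL1, E2F1 and CDT1 changed there by -0.62 (SE 0.076, adjusted p = 1.76e-06), -0.45 (SE 0.075, adjusted p = 5.86e-05) and -0.36 (SE 0.076, adjusted p = 0.000647), and SMAD3 rose by 0.35 (SE 0.079, adjusted p = 0.00104). For the interaction 9 were higher and 1 lower, beside 18.4% and 15.0% over all genes.

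**Figure D5:**
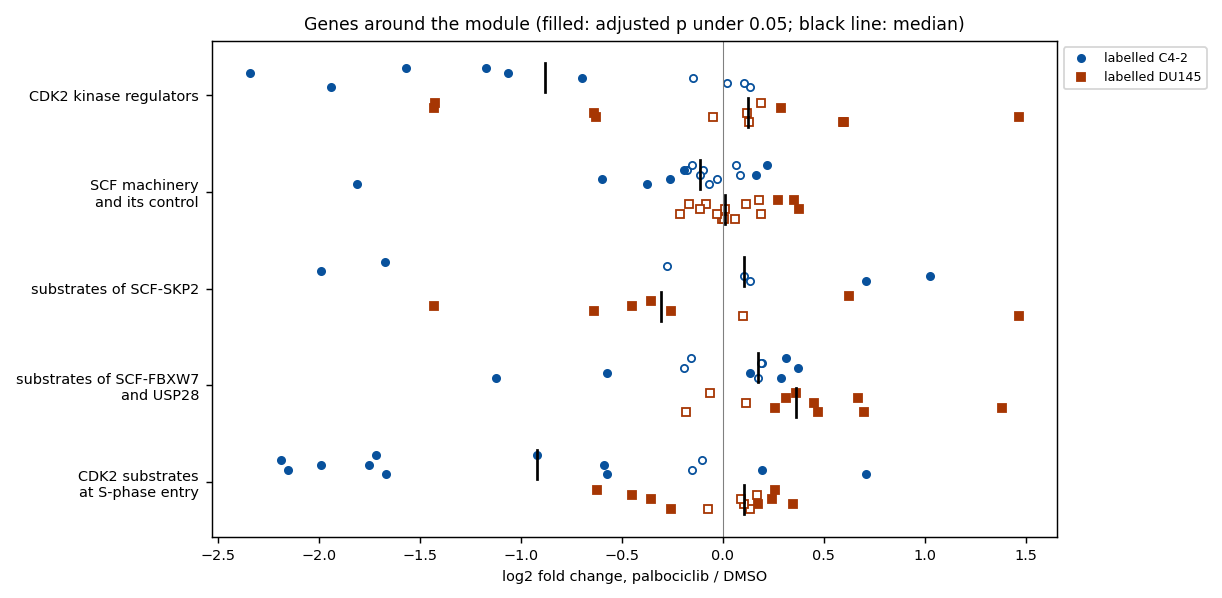
Log2 fold changes (horizontal axis) of the tested genes of the 5 lists (rows) in C4-2 (circles) and DU145 (squares). Filled symbols have an adjusted p under 0.05 and black lines are medians, which lie at -0.88 and 0.12 for kinase regulators and at -0.92 and 0.10 for CDK2 substrates.

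The genes whose pair of log2 fold changes in C4-2 and DU145 lay nearest to that of a member were taken from 9526 genes with a mean of at least 5 CPM, the distance being Euclidean on the log2 scale. Nearest to CCNE2 were CDC45 (distance 0.27, -2.76 in C4-2 and -0.40 in DU145), RRM2 (0.27, -2.84 and -0.25) and GINS2 (0.37, -2.67 and -0.51). Nearest to CCNA2 were PSRC1 (0.047, -1.73 and -0.018), WDR62 (0.061, -1.74 and 0.013) and HJURP (0.095, -1.59 and 0.0010). Nearest to CDK2 were CKAP2L (0.047, -1.19 and 0.37), ACAT2 (0.061, -1.17 and 0.37) and NEK2 (0.072, -1.29 and 0.44). Nearest to CKS2 were PER1 (0.055, -0.53 and 1.11), SGTA (0.061, -0.51 and 1.03) and KCTD5 (0.077, -0.42 and 1.05). Some of these values rested on single libraries. RRM2 in DU145 did not pass without palbociclib replicate 3 (-0.16, adjusted p = 0.0561) or DMSO replicate 1 (-0.22, adjusted p = 0.0609). PER1 did not pass in C4-2 (adjusted p = 0.0697) and ranged from -0.83 to -0.21 with single libraries left out. KCTD5 in C4-2 did not pass without DMSO replicate 1 (-0.22, adjusted p = 0.206) or with DESeq2 (adjusted p = 0.0581). The adjusted p-values other than that of DESeq2 are edgeR's. The distances rest on 2 values per gene, 1 over 5 and 1 over 6 libraries.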

How the data were processed

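Total RNA of 11 libraries was analysed. The authors deposited a table of raw counts per gene for each line, and coordinates are in hg38 per the submitters' processing notes. For C4-2 the authors counted read pairs in exons of Ensembl annotation release 107 by featureCounts 2.0.1, without a strand option, per the file headers. For DU145, aligner, counter and strand setting: not given in the sources used here. Strand matters where exons overlap, since reads of opposite genes are then mixed or dropped.

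Tests were run in R 4.3.3 by edgeR 4.0.16 (filterByExpr, TMM scaling, quasi-likelihood F test, Benjamini-Hochberg at 0.05), each line alone, and jointly for the interaction. The scripts were tested on simulated data. SE values came from the coefficient and its F statistic. CPM used library totals, as mean ± SD. The members and lists were chosen with earlier results of these data known. Named genes were all members, up to 4 called genes per list and line with the smallest adjusted p (up to 2 where none was called), and the 3 nearest genes for 4 members. Alternatives were other size factors, library totals, other filters, DESeq2 1.42.0, a replicate block, each library left out, and 0.5 added to counts in ratios. The DU145 column names were matched to the sample titles by treatment and number. Replicates were compared over genes with 20 counts or more between them.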

Additional observations from a re-analysis of the deposited data

Results flagged for a closer look

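For 6 of the 9 members the response to palbociclib differed between the lines by the interaction test itself (edgeR's quasi-likelihood test, adjusted over 18139 genes, of which 33.4% were called). The DU145 log2 fold change exceeded the C4-2 one by 2.62 for CCNE2 (adjusted p = 1.21e-08), 2.50 for CDC25A (4.76e-13), 1.70 for CCNA2 (3.11e-12), 1.66 for CDK2 (9.43e-12), 1.60 for CKS2 (2.31e-13) and 0.75 for CKS1B (4.65e-06). The lines also differ in counting and in depth, which cannot be told apart from the line. No group had enough libraries for a search for single outlying libraries.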

How the results depend on the processing

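All 7 members called in C4-2, all 6 in DU145 and all 6 for the interaction kept their direction and call under every alternative run. Over the 9 members and 3 comparisons, 365 of 378 values kept direction and side of the threshold. The number of genes called in C4-2 was 6184, against 3793 with DESeq2. For the SCF machinery list, called genes in C4-2 were 3 with DESeq2 and 4 to 6 with single libraries left out (7 in the main analysis). In DU145 they were 8 with the replicate block, 7 with both libraries numbered 3 left out and 3 to 5 with single libraries left out (main 3), and for the interaction 3 with library totals, 3 with DESeq2 and 3 to 6 with single libraries left out (main 7). Substrates of FBXW7 called for the interaction were 3 to 6 (main 6). Values near 0 that did not pass in the main analysis changed sign. These were CCNA2 in DU145 (-0.055 to 0.046 with single libraries left out, 0.053 with both numbered 3 left out) and, for the interaction, SKP2 (-0.014 with relative log expression factors, -0.072 with library totals, -0.013 with DESeq2, -0.032 to 0.10 with single libraries left out), CCNE1 (-0.24 to 0.032) and FBXW7 (-0.016 to 0.24, and -0.0054 with both numbered 3 left out). The DU145 CCNE2 to CCNE1 log2 ratio difference ranged from -0.16 to 0.11. Among the nearest genes in DU145, HJURP gave -0.022 with library totals, -0.0020 with the stricter filter, -0.022 with no filter and -0.063 to 0.078 with single libraries left out. WDR62 gave -0.010 (library totals), -0.0095 (no filter), -0.012 (both numbered 3 left out) and -0.085 to 0.093, and PSRC1 gave 0.050 (both numbered 3 left out) and -0.064 to 0.041. The cause was not tested.

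With the replicate block 5699 genes were called in C4-2, 9953 in DU145 and 6037 for the interaction, and 7, 6 and 6 members. Deviations of same-numbered libraries from their group means correlated at 0.0067 and 0.029 in C4-2 and at 0.020, 0.036 and 0.128 in DU145. The 0.128, of the libraries numbered 3, was the highest of all pairs, and differently numbered DU145 pairs ranged from -0.087 to 0.061. Deviations of the C4-2 DMSO libraries mirror each other, so the C4-2 values cannot decide on pairing. The main analysis had no block because no label says what a number marks. A source of variation shared by the DU145 libraries numbered 3 was not tested. Depth limits CCNE2 and CCNE1 most, with 8 to 11 and 26 to 35 counts per C4-2 palbociclib library. Leaving out a library in turn can leave 1 DMSO library in C4-2, which is then assumed to vary like the others.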

Other observations

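SKP1, the adaptor that joins F-box proteins such as SKP2 and FBXW7 to the SCF scaffold, was at 3.94 ± 1.4 CPM (SD, n = 3) with palbociclib and 4.02 ± 0.41 (n = 2) with DMSO in the libraries labelled C4-2. In those labelled DU145 it was at 124 ± 13 and 129 ± 11 CPM (n = 3 each). The gene was chosen after its values were seen, the tables were made separately, and the cause of this gap was not tested.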
